A study of Rattus rattus with 18 samples.

Results

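MiR-219 and miR-338 are microRNAs of the oligodendrocyte, the cell that makes myelin in the brain, and 5 of the 761 rat miRNAs on the array belong to them. They were chosen by name, with earlier results of these data known: rno-miR-219a-5p, rno-miR-219a-1-3p, rno-miR-219a-2-3p, rno-miR-338-3p and rno-miR-338-5p (the prefix for rat is left out below). The question was how their levels compare between the 2 brain regions of each rat, in sham-operated rats, after stroke and after postconditioning. Each miRNA was read by 4 spots per array, and 4 of the 5 miRNAs were detected on at least 3 arrays and tested among 532 miRNAs.

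A microRNA is cut from a hairpin precursor, and its 5p and 3p forms come from the opposite arms of that hairpin. The seed, bases 2 to 8 from the 5′ end, does most of the pairing with target mRNAs. In the oligodendrocyte lineage miR-219 and miR-338 increase as precursor cells leave the cell cycle and mature, and they repress factors that hold the precursors in division, among them the PDGF receptor alpha, Sox6 and Hes5. White matter and myelinated fibre bundles are therefore their usual place in the brain. MiR-219a-1-3p and miR-219a-2-3p are the 3p arms of separate hairpins that give the same miR-219a-5p.

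The target sequences of the 5 probes are shown because they set what each spot can pair with, and the seed is in capitals.
rno-miR-219a-5p: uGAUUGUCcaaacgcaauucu
rno-miR-219a-1-3p: aGAGUUGCgucuggacgucccg
rno-miR-219a-2-3p: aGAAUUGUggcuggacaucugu
rno-miR-338-3p: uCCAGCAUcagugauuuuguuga
rno-miR-338-5p: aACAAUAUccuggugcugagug
All 5 seeds differed, and no other miRNA on the array had any of them. The 2 arms that share a name, miR-219a-1-3p and miR-219a-2-3p, were 7 edits apart and had 5 of the 7 seed bases in common. No other miRNA on the array lay within 2 edits of any of the 5, the nearest being 7 edits away. Both miR-219a-5p and miR-338-3p had a low share of G and C, 38.1% and 39.1%, where the tested miRNAs had a median of 50%. The share was 45.5% in miR-219a-2-3p and miR-338-5p and 63.6% in miR-219a-1-3p. A further 3 array miRNAs are the opposite strand of the same loci and are shown for that pairing.
rno-miR-219b: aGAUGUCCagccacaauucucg
rno-miR-3065-5p: uCAACAAAaucacugaugcu
rno-miR-3065-3p: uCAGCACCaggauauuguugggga
MiR-219b was complementary to miR-219a-2-3p over a run of 20 bases, miR-3065-5p to miR-338-3p over 20 and miR-3065-3p to miR-338-5p over 19.

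The brain tissue came from 9 adult male Sprague-Dawley rats, 3 in each of 3 conditions, and each rat gave 1 array of the region labelled core and 1 of the region labelled peri, 18 arrays in all. The conditions were sham operation (sham), transient middle cerebral artery occlusion with a filament that was later withdrawn (tMCAO), and remote limb postconditioning (PostC). The sources used here do not say whether the PostC rats had an occlusion, and give the age of the animals only as adult. The methods name 2 times of sacrifice after reperfusion and do not say which applies to the arrays. The labels give the core as temporo-parietal cortex and the peri region as striatum, whereas the study's methods give the core as striatum and the penumbra as temporo-parietal cortex. Core and peri are used here in the labels' sense, in sham rats too, which had no occlusion. The replicate is the rat. Each array thus has a counterpart from the same animal in the other region.

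The values are normalized log2 intensities, so a difference of 1 is a doubling, and each is relative to the other miRNAs of the same array. Detection on an array meant a median spot above a limit set by the empty spots, and this limit lay between 49.1 and 566 intensity units with 188 to 605 miRNAs above it. The core array of sham rat 2 stood apart. It correlated with the other sham core arrays at a mean r of 0.894, and 3 spike control probes read 32538, 15349 and 14336 units there against at most 829, 1011 and 684 on the other 17 arrays. Further spike controls set it apart less, at 31866 against at most 22463 units and at 605 against at most 356. The PostC core arrays also correlated less with each other, at a mean r of 0.850 to 0.898. Results of miR-338-3p and miR-219a-5p that rest on the sham core are given with and without sham rat 2. Counts and medians over lists of other miRNAs and correlations with the G and C share are given with all rats only. Markers of neurons were present throughout, all 8 of them tested, with a summed linear level of 70188 to 118102 units per array. In bulk tissue, fewer oligodendrocytes and less of the miRNA in each cell cannot be told apart.

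Of 64 tests, 4 miRNAs in 16 comparisons, 0 passed an adjusted p of 0.05 by limma, against 1.6% over all miRNAs and comparisons. At an unadjusted p under 0.05 the count was 17 of 64, or 26.6%, against 12.4% over all miRNAs, in comparisons that share samples. The methods' t-test gave 7 of 64 at an unadjusted p under 0.05 and 0 after adjustment. The lowest adjusted p was 0.0583, for miR-338-3p. All differences below are thus measured values whose adjusted p missed the threshold unless stated.

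**Figure D1:**
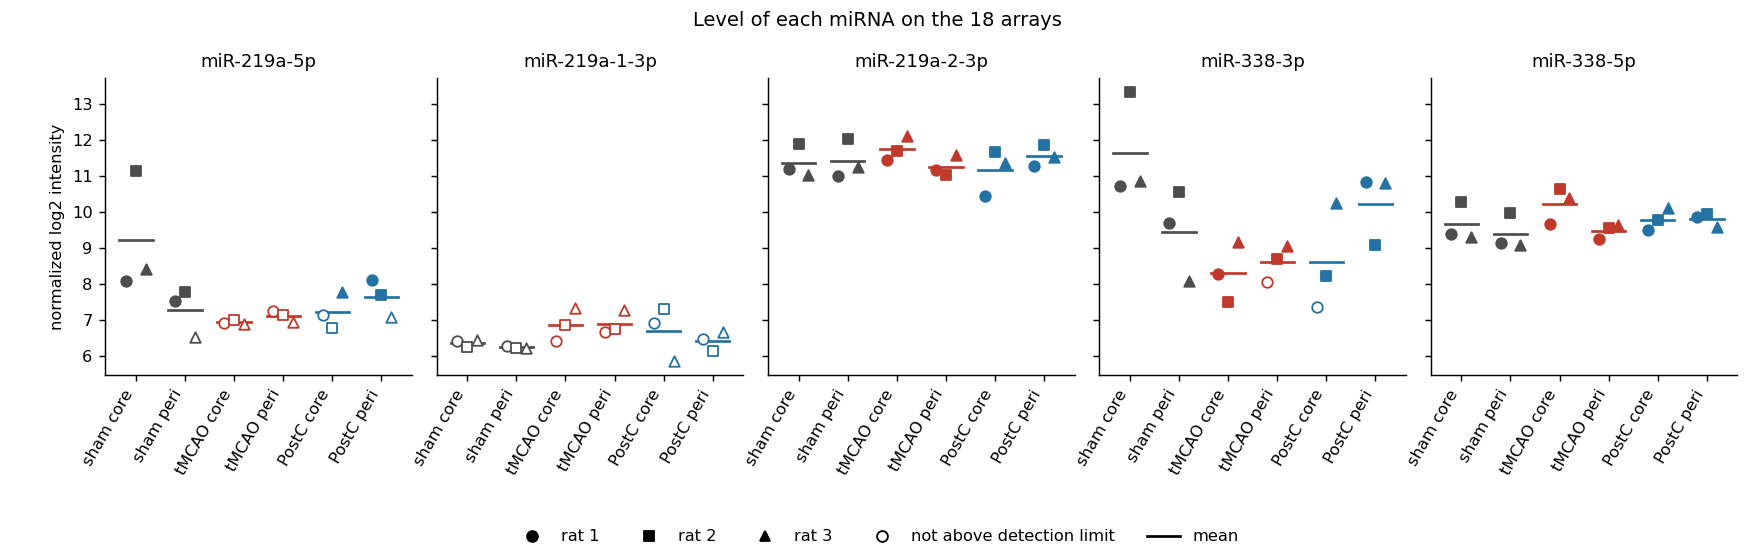
Normalized log2 intensity (y axis) of the 5 miRNAs on the 18 arrays by condition and region (x axis); symbols are rats 1, 2 and 3 of a condition, bars the mean of 3 rats and open symbols arrays on which the miRNA was not above the detection limit. MiR-219a-5p and miR-338-3p are highest in the sham core, miR-219a-2-3p and miR-338-5p stay within about the same range in all groups, and miR-219a-1-3p has open symbols on all 18 arrays.

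MiR-338-3p, the arm of miR-338 best known for repressing factors that keep oligodendrocyte precursors immature, was highest in the sham core. There it measured 10.70, 13.33 and 10.85 in rats 1, 2 and 3. In the sham peri region it measured 9.68, 10.55 and 8.08. Each sham rat was higher in the core than in its own peri region, and the highest peri value lay just under the lowest core value. After tMCAO it measured 8.29, 7.50 and 9.15 in the core and 8.06, 8.70 and 9.04 in the peri region, and all 3 tMCAO core values lay below all 3 sham core values. In PostC rats it measured 7.35, 8.21 and 10.24 in the core and 10.82, 9.06 and 10.79 in the peri region. In PostC every rat was lower in the core than in its own peri region. It was above the detection limit on 16 of the 18 arrays, not on those of tMCAO rat 1, peri, and PostC rat 1, core. Some of the 16 were close to the limit. In tMCAO these were rat 2, core (115.7 against 113.2 units), and rats 2 and 3, peri (361 against 346 and 354 against 338). In PostC it was rat 2, core (600 against 566). By mean level the order was sham core (11.63 ± 1.48, SD, n = 3), PostC peri (10.22 ± 1.00), sham peri (9.44 ± 1.25), tMCAO peri (8.60 ± 0.50), PostC core (8.60 ± 1.48) and tMCAO core (8.31 ± 0.83), and in each neighbouring pair of that order the ranges of the 3 arrays overlapped.

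MiR-219a-5p, the arm shared by the miR-219a hairpins, was also highest in the sham core and was dim elsewhere. In the sham core it measured 8.08, 11.14 and 8.42 in rats 1, 2 and 3, detected in all 3. In the sham peri region it measured 7.52, 7.77 and 6.54, detected in 2 of 3. The sham core values lay above all sham peri values, with rat 2's core far above the others. After tMCAO it measured 6.91, 7.01 and 6.88 in the core and 7.24, 7.13 and 6.95 in the peri region, and it was not above the detection limit on any of these 6 arrays. By another limit, added after seeing the data and taken from dim miRNA spots, 3 of these 6 arrays (core of rat 3, peri of rats 2 and 3) were above it, and 14 of all 18 arrays in place of 8. In PostC rats it measured 7.13, 6.76 and 7.77 in the core and 8.12, 7.69 and 7.08 in the peri region, detected on 1 and 2 arrays. The spread of the 3 PostC rats thus covered both detected and undetected levels in each region. The order of the means was sham core (9.21 ± 1.68), PostC peri (7.63 ± 0.52), sham peri (7.28 ± 0.65), PostC core (7.22 ± 0.51), tMCAO peri (7.11 ± 0.14) and tMCAO core (6.93 ± 0.07), and again each neighbouring pair overlapped.

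The 3p arm miR-219a-2-3p and the 5p arm miR-338-5p were detected on all 18 arrays and varied little. MiR-219a-2-3p lay between 10.44 and 12.09 with a median of 11.39, and its group means ran from 11.15 ± 0.63 in the PostC core to 11.74 ± 0.33 in the tMCAO core. MiR-338-5p lay between 9.08 and 10.64 with a median of 9.65, and its group means ran from 9.39 ± 0.50 in the sham peri region to 10.23 ± 0.50 in the tMCAO core. Over the 18 arrays the SD was 0.42 for miR-219a-2-3p and 0.44 for miR-338-5p, near the middle of the 532 miRNAs (41.7th and 44.7th percentile). It was 1.04 for miR-219a-5p and 1.53 for miR-338-3p, at the 91.0th and 98.5th percentile. MiR-219a-1-3p was above the detection limit on 0 of 18 arrays (8 by the limit from dim spots), measured 5.86 to 7.34 and was not tested.

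**Figure D2:**
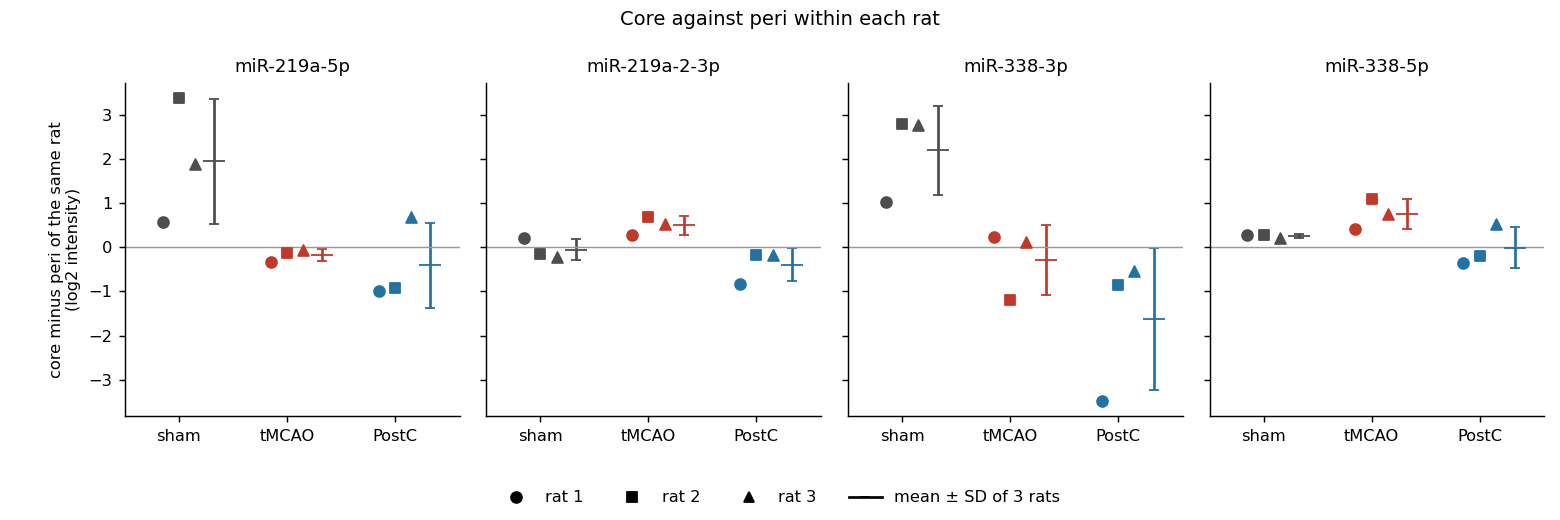
Core minus peri log2 intensity of the same rat (y axis) for the 4 miRNAs tested, by condition (x axis); each symbol is 1 rat and the bar is the mean ± SD of 3 rats. For miR-338-3p the 3 sham rats lie above 0, between 1.02 and 2.78, and the 3 PostC rats below 0, between -3.47 and -0.55.

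Within sham rats, miR-338-3p and miR-219a-5p were higher in the core than in the peri region in 3 of 3 rats. For miR-338-3p the core minus peri difference was 1.02, 2.78 and 2.77 in rats 1, 2 and 3, a mean of 2.19 (SE 0.58, 95% interval 0.87 to 3.51), or 4.56-fold. For miR-219a-5p it was 0.56, 3.37 and 1.89, a mean of 1.94 (SE 0.51, interval 0.78 to 3.09), with the peri array of rat 3 under the detection limit, so that its 1.89 is a measured value only. These were the third and second of 532 miRNAs by p, each with an adjusted p of 0.628, and 0 of 532 miRNAs passed in that comparison, 29 at an unadjusted p under 0.05. MiR-338-5p was higher in the core in 3 of 3 rats by a smaller amount, 0.27, 0.29 and 0.21, and miR-219a-2-3p was higher in 1 rat and lower in 2 (0.21, -0.15 and -0.22). So 3 of the 4 miRNAs were higher in the core in every sham rat, against 21.8% of all miRNAs tested. Without sham rat 2 the difference was 1.89 for miR-338-3p and 1.22 for miR-219a-5p, with an adjusted p of 0.998 for each, so for miR-219a-5p it was over 1.5 times smaller.

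After tMCAO, where 0 of the 4 passed against 0.94% of all miRNAs, neither miR-338-3p nor miR-219a-5p had an interval that left out 0. MiR-338-3p measured 0.22, -1.20 and 0.11 in core minus peri, a mean of -0.29 (SE 0.58, interval -1.61 to 1.03, adjusted p = 0.936), and rat 2 alone was lower in the core. The peri array of rat 1 was under its detection limit, so the 0.22 is a measured value only. MiR-219a-5p measured -0.33, -0.13 and -0.07, with all 6 arrays under the detection limit, so no fold is given. As measured it was the 1 miRNA of the 4 lower in the core in every tMCAO rat, against 24.6% of all miRNAs, and nothing is read from that sign. The other arms were on the opposite side. MiR-338-5p was higher in the core in 3 of 3 tMCAO rats by 0.41, 1.08 and 0.75, a mean of 0.75 (SE 0.26, interval 0.17 to 1.33, adjusted p = 0.297). MiR-219a-2-3p was higher by 0.27, 0.68 and 0.53, a mean of 0.49 (SE 0.21, interval 0.03 to 0.96, adjusted p = 0.399). These 2 of 4 stood against 19% of all miRNAs that were higher in the core in every tMCAO rat.

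In PostC rats miR-338-3p was lower in the core than in the peri region in 3 of 3 rats, by -3.47, -0.85 and -0.55. The mean was -1.62 (SE 0.58, interval -2.94 to -0.31, adjusted p = 0.399), and without PostC rat 1, whose core array did not reach the detection limit, it was -0.70. MiR-219a-2-3p was lower in the core in 3 of 3 rats too, by -0.83, -0.18 and -0.17, a mean of -0.39 (SE 0.21, interval -0.86 to 0.07, adjusted p = 0.531) and -0.18 without PostC rat 1. These 2 of 4 stood against 10.2% of all miRNAs. MiR-219a-5p measured -0.99, -0.93 and 0.69 and miR-338-5p -0.36, -0.19 and 0.52, so both had PostC rat 3 on the other side of 0 from rats 1 and 2. Over the 3 conditions together the mean core minus peri difference of the 4 miRNAs was between 0.02 and 0.45, with adjusted p-values of 0.627 to 0.979, where 0.752% of all miRNAs passed, and 0 of the 4 had the same sign in all 9 rats, against 2.26%. The 0.45, a measured value of miR-219a-5p, was 0.21 without sham rat 2, over 1.5 times smaller, and the 0.09 of miR-338-3p was -0.0068 without that rat.

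The region difference itself was then compared between conditions. For miR-338-3p it was lower in PostC than in sham rats by -3.81 (SE 0.82, interval -5.68 to -1.95), the first of 532 miRNAs by p with an adjusted p of 0.309. This is a measured value that includes the core array of PostC rat 1, under the detection limit, and it was -2.89 without that rat. The 3 PostC rats did not overlap the 3 sham rats, which made it the 1 miRNA of 4 lower without overlap, against 7.89% of all miRNAs. For miR-219a-5p the same difference was -2.35 (SE 0.72, interval -3.98 to -0.71, adjusted p = 0.309), with PostC rat 3 inside the sham range. For tMCAO against sham, which shares the sham rats with that comparison, the differences were -2.48 (SE 0.82, interval -4.34 to -0.62) for miR-338-3p and -2.11 (SE 0.72, interval -3.75 to -0.48) for miR-219a-5p, each with an adjusted p of 0.425. The value of miR-338-3p is as measured, with the peri array of tMCAO rat 1 under the detection limit. All 6 tMCAO arrays and 3 of the 6 PostC arrays were under the detection limit for miR-219a-5p, so its differences here are as measured and give no size. For tMCAO against sham, miR-338-3p did not overlap, and miR-219a-2-3p and miR-338-5p lay without overlap in the other direction, at 0.55 (interval -0.11 to 1.20) and 0.49 (interval -0.33 to 1.31). MiR-219a-5p was without overlap as measured, but its tMCAO values were differences between arrays under the detection limit. By measured values, the rule behind the 28.9% of all miRNAs, this made 4 of 4. Without miR-219a-5p, from which nothing is read here, 3 remained. Between PostC and tMCAO, miR-219a-2-3p differed by -0.89 (SE 0.29, interval -1.55 to -0.23, adjusted p = 0.488), and it was the 1 of 4 lower without overlap, against 4.32%. Of all miRNAs, 0 of 532 passed in any of these 3 comparisons, and 46, 56 and 30 had an unadjusted p under 0.05 for tMCAO against sham, PostC against sham and PostC against tMCAO. Without sham rat 2 the PostC against sham difference was -3.52 for miR-338-3p and -1.63 for miR-219a-5p, and the tMCAO against sham difference was -2.18 and -1.40.

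**Figure D3:**
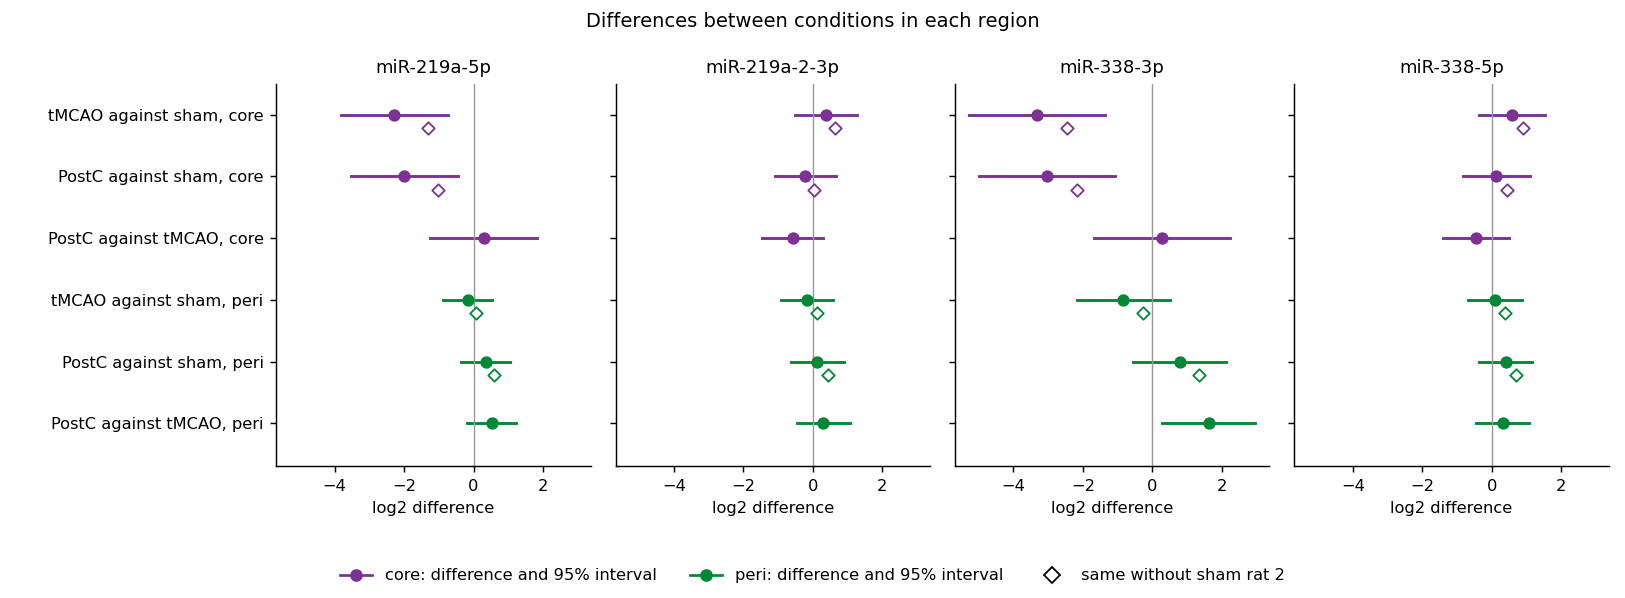
Log2 differences between conditions (x axis) for the 4 miRNAs tested, in core and peri (rows); points are limma estimates with 95% intervals, and open diamonds the same estimate without sham rat 2. The intervals of miR-219a-5p and miR-338-3p lie below 0 in the core against sham, and those of miR-219a-2-3p and miR-338-5p cross 0 in all 6 comparisons.

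In the core, miR-338-3p and miR-219a-5p were lower after tMCAO than in sham rats. MiR-338-3p differed by -3.32 (SE 0.88, interval -5.27 to -1.36, adjusted p = 0.0903), or 9.95-fold as measured, and by -2.46 without sham rat 2. The core array of tMCAO rat 2 was just above the detection limit for it. MiR-219a-5p differed by -2.28 as measured (SE 0.69, interval -3.82 to -0.75, adjusted p = 0.106). As it was under the detection limit on all 3 tMCAO core arrays, the mean of the 3 sham arrays, 9.21, was set against a bound. The bound had a mean of 7.34, set by the dimmest detected miRNAs of each tMCAO array, which puts the sham mean at least 3.65-fold higher. It covers the undetected arrays only, not the spread of the sham rats (SD 1.68). Without sham rat 2 the measured difference was -1.32 and the bound at least 1.87-fold. As measured, 2 of the 4 miRNAs were lower without overlap, against 24.2% of all miRNAs, and 0 of 4 passed, against 3.38%. MiR-219a-2-3p and miR-338-5p differed by 0.37 (interval -0.52 to 1.26) and 0.58 (interval -0.37 to 1.53), with values that overlapped those of sham rats. Without sham rat 2 they differed by 0.63 and 0.89, each over 1.5 times larger.

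In the PostC core the same 2 miRNAs were low. MiR-338-3p differed from the sham core by -3.03 (SE 0.88, interval -4.98 to -1.07, adjusted p = 0.13) as measured, with the core array of PostC rat 1 under the detection limit, and by -2.40 without that rat. MiR-219a-5p, detected on only 1 of the 3 PostC core arrays, differed by -1.99 as measured (SE 0.69, interval -3.53 to -0.46, adjusted p = 0.21). Without sham rat 2 these were -2.18 and -1.03, with the value of miR-219a-5p over 1.5 times smaller. Both lay without overlap under the sham core, 2 of 4 against 11.1% of all miRNAs. PostC and tMCAO shared the sham rats as their reference, and compared with each other in the core they differed by 0.29 for miR-338-3p (interval -1.67 to 2.24), while miR-219a-5p, under the detection limit on 5 of these 6 arrays, gives no size. In that comparison 0 of 4 were without overlap, against 18.6%, and 0 of 4 passed, against 2.26%.

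In the peri region the 4 miRNAs overlapped between sham and tMCAO rats, 0 of 4 without overlap against 31.6% of all miRNAs, and between sham and PostC rats, 0 of 4 against 5.08%. None of the 4 passed after tMCAO, against 0.564%. MiR-338-3p differed by -0.83 (SE 0.62, interval -2.17 to 0.50) after tMCAO and by 0.79 (SE 0.62, interval -0.55 to 2.12) in PostC. Both values moved by over 1.5 times with single rats: the first was -0.28 without sham rat 2 and -1.51 without sham rat 3, and the second was 1.34 without sham rat 2, 0.11 without sham rat 3 and between 0.49 and 1.37 without a PostC rat. PostC and tMCAO peri arrays did not overlap for miR-338-3p. They differed by 1.62 (SE 0.62, interval 0.28 to 2.96, adjusted p = 0.725) as measured, with PostC higher, 1 of 4 higher without overlap against 3.2%. The peri array of tMCAO rat 1 was under the detection limit, and those of tMCAO rats 2 and 3 were just above it. With 1 rat left out the difference ran from 1.32 to 2.20. MiR-219a-5p was under the detection limit on all 3 tMCAO peri arrays and 1 each of the sham and PostC peri arrays, so its peri differences give no size. MiR-219a-2-3p and miR-338-5p differed by -0.17 to 0.40 in the 3 peri comparisons. With median scaling, which shifted the median of all miRNAs by -0.41 there, tMCAO against sham was -1.21 for miR-219a-2-3p and -1.10 for miR-338-5p. MiR-338-3p passed the threshold by limma with that scaling (adjusted p = 0.0361), and over the alternatives its difference reached -1.99.

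Averaged over the core and peri arrays of each rat, miR-338-3p was 10.53 ± 1.27 in sham, 8.46 ± 0.56 in tMCAO and 9.41 ± 0.98 in PostC rats (SD, n = 3 rats each). The tMCAO against sham difference was -2.08 (SE 0.64, interval -3.48 to -0.67, adjusted p = 0.0583) as measured, with the peri array of tMCAO rat 1 under the detection limit, and -1.37 without sham rat 2. MiR-219a-5p averaged 8.24 ± 1.06, 7.02 ± 0.09 and 7.42 ± 0.20, a measured tMCAO against sham difference of -1.23 (SE 0.41, interval -2.14 to -0.32, adjusted p = 0.0707) and -0.62 without sham rat 2. All 6 tMCAO arrays were under its detection limit, and only the core gave a bound above 1-fold, so no size is read from this difference. In both cases the lowest measured sham rat lay above the highest tMCAO rat. These 2 of 4 stood against 23.3% of all miRNAs lower without overlap, and 11.8% of all miRNAs passed the threshold in this comparison, the highest share of the 16. In PostC rats the averages differed from sham by -1.12 (interval -2.53 to 0.29) for miR-338-3p and -0.82 (interval -1.73 to 0.09) for miR-219a-5p, with overlapping rats, 0 of 4 without overlap against 18.2% and 0 of 4 past the threshold against 0.188%. Without sham rat 2 they were -0.42 and -0.21. For PostC against tMCAO, miR-219a-5p was under the detection limit on all tMCAO arrays and gave no bound above 1-fold in either region, so its measured rat means, the 1 of 4 higher without overlap against 18.6%, give no size. In that comparison 0 of 4 passed, against 5.64%. The smallest two-sided p that exact permutation allows here is 0.1 between 2 conditions and 0.25 within the 3 rats of 1 condition, so no exact p is given for single miRNAs.

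The levels of miR-338-3p and miR-219a-5p went together over the 18 arrays, as a description of arrays that share rats and conditions. MiR-219a-5p was detected on 8 of the 18 arrays and on none of the 6 from tMCAO rats, so each r and rank given for it is read in large part from values under the detection limit. Their Pearson r was 0.84, 0.75 without the array of sham rat 2, core, and 0.68 after the mean of each of the 6 groups was subtracted. MiR-219a-2-3p and miR-338-5p had an r of 0.69 (0.67 without that array). For the 2 arms of a hairpin the r was 0.14 for miR-338-3p with miR-338-5p and 0.16 for miR-219a-5p with miR-219a-2-3p. Without the core array of sham rat 2 these were -0.07 and -0.15, the other sign, and with group means subtracted 0.58 and 0.36. MiR-219a-5p with miR-338-5p had an r of 0.23, which was -0.066 without that array. With group means subtracted it was 0.67, close to the 0.68 of miR-219a-5p with miR-338-3p.

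**Figure D4:**
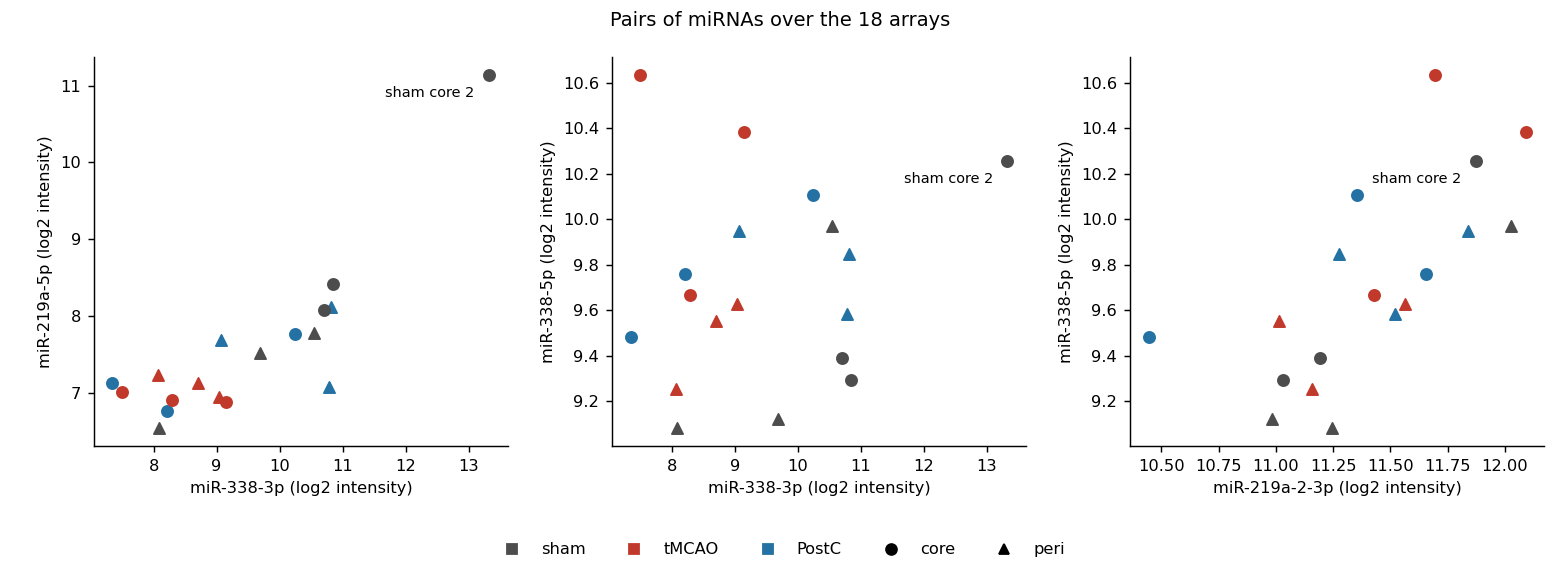
Normalized log2 intensities of 3 pairs of miRNAs (x and y axes), each point 1 of the 18 arrays, coloured by condition, with circles for core and triangles for peri. MiR-219a-5p is higher where miR-338-3p is higher in the left panel, with the array of sham rat 2, core, at its top right corner, while miR-338-5p shows no such course against miR-338-3p (r 0.14) in the middle panel.

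Among the 531 other miRNAs, the 3 nonmembers with the highest r to miR-219a-5p were miR-135b-5p (0.96), miR-29a-5p (0.94) and miR-20b-5p (0.94), and miR-338-3p itself ranked 9th. For miR-338-3p they were miR-15a-5p (0.96), miR-29b-3p (0.95) and miR-29a-5p (0.89). Of these 5 miRNAs, 4 had a G and C share of 34.8% to 36.8%, and miR-20b-5p had 47.8%. Without the core array of sham rat 2, miR-20b-5p had an r of 0.74 to miR-219a-5p and ranked 8th, after miR-338-3p at 7th. For miR-219a-2-3p the closest were miR-1839-5p (0.77), miR-322-3p (0.70) and miR-146b-5p (0.69), and for miR-338-5p miR-382-5p (0.75), miR-1224 (0.73) and miR-30a-3p (0.67). Their G and C shares ran from 40.9% to 66.7%. For miR-338-5p, miR-30a-3p ranked 9th (r 0.65) without the core array of sham rat 2.

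Across the 532 miRNAs, which are not independent replicates, the G and C share correlated with the tMCAO against sham core difference at r 0.40 and with the PostC against sham core difference at r 0.35, and with core minus peri in sham rats at r -0.24. With a trend on G and C share removed from each array, the tMCAO against sham core difference was -2.96 for miR-338-3p and -1.91 for miR-219a-5p, and -2.20 and -1.05 when sham rat 2 was left out as well. With the trend removed and all rats kept, the sham core minus peri difference was 2.04 and 1.77, and the PostC against sham difference of core minus peri -3.59 and -2.10. With sham rat 2 also left out these were 1.75 and 1.06, and -3.30 and -1.39, so those of miR-219a-5p were over 1.5 times smaller.

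Of 10 other miRNAs linked to the oligodendrocyte lineage, 9 were tested and miR-32-5p was not. In the core, 4 were higher and 5 lower after tMCAO than in sham rats, with a median difference of -0.01 beside -0.05 over all miRNAs, and 0 passed. In core minus peri of sham rats, 5 were higher and 4 lower, with a median of 0.02 beside 0.02 over all, and in PostC against sham core 3 were higher and 6 lower, with a median of -0.35 beside 0.06. In the core the values ran in both directions, and the 2 lowest adjusted p belonged to miR-9a-5p, a neural miRNA also found in oligodendrocyte precursors, at -1.89 (adjusted p = 0.104), and miR-23a-3p, a repressor of lamin B1, at 0.77 (adjusted p = 0.125). MiR-27a-3p was at -1.31 (adjusted p = 0.276), miR-212-3p at -0.96 (adjusted p = 0.142) and miR-146a-5p at 0.96 (adjusted p = 0.152) there. In the rat means, of those that did not pass, miR-23a-3p was at 0.26 (adjusted p = 0.302), miR-27a-3p at -1.21 (adjusted p = 0.0765), miR-212-3p at -0.83 (adjusted p = 0.0849), miR-146a-5p at 0.62 (adjusted p = 0.11) and miR-138-5p, which acts in early differentiation, at 0.06 (adjusted p = 0.899). In the rat means 1 of 9 passed, against 11.8% of all miRNAs. MiR-9a-5p fell by 1.20 (SE 0.32, adjusted p = 0.035) after tMCAO, and by 0.98 with an adjusted p of 0.0972 without sham rat 2. That call was lost on leaving out 6 of the 9 rats, 1 at a time (sham rats 2 and 3, tMCAO rats 1 and 2, PostC rats 1 and 2).

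The opposite-strand miRNAs were dim. MiR-219b was detected on 5 arrays, miR-3065-5p on 2 and miR-3065-3p on 0, and miR-219b alone was tested; it was singled out after its values were seen. It was detected on 0 of the 6 tMCAO arrays and 3 of the 6 sham arrays. Its measured rat means were 7.10 ± 0.13 in sham and 6.64 ± 0.10 in tMCAO rats (adjusted p = 0.035), and since the lower group was under the detection limit throughout, no size is given. The call was lost on leaving out 7 of the 9 rats, 1 at a time (all sham and tMCAO rats and PostC rat 2), with an adjusted p of 0.0737 without sham rat 2. Whether miR-219a-2-3p RNA and miR-219b RNA affect each other's spots was not tested.

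Markers of other cells were read in the same core arrays, where 3.38% of all miRNAs passed for tMCAO against sham. Of 8 neuron miRNAs, 3 were higher and 5 lower in the tMCAO core than in the sham core, with a median of -0.81 beside -0.05 over all miRNAs and 0 past the threshold (3 past it in the rat means, all lower, against 7.33% of all miRNAs lower there), and their summed level was 70188 to 91330 units there against 83724 to 101013 in the sham core. Of 6 leukocyte and microglia miRNAs, 5 were tested, 4 higher and 1 lower, with a measured median of 1.35, and a summed level of 5387 to 9885 against 2513 to 5396. In the PostC core that summed level was 10216 to 22758. The 1 past the threshold was miR-155-5p, an inflammatory miRNA of myeloid cells (adjusted p = 0.0318), which was detected on 3 of the 18 arrays, so no size is given. MiR-223-3p, which sets that median, and miR-142-5p were detected on 4 and 5 arrays, while miR-21-5p and miR-146a-5p were detected on all 18 and differed by 1.38 (adjusted p = 0.164) and 0.96. MiR-146a-5p is in the oligodendrocyte lineage list as well, as miR-138-5p is in both that list and the neuron list. Of 3 red blood cell miRNAs, 2 were tested, 1 higher and 1 lower with a median of 0.95, and both endothelial miRNAs were lower with a median of -1.03, with 0 past the threshold in each list. In core minus peri of sham rats, where miR-338-3p and miR-219a-5p were higher in the core, 7 of 8 neuron miRNAs (median 0.24), 4 of 5 leukocyte and microglia miRNAs (0.06), both red cell miRNAs (0.69) and both endothelial miRNAs (0.92) were higher as well, beside a median of 0.02 over all miRNAs and with 0 past the threshold. In core minus peri of tMCAO and PostC rats all 5 leukocyte and microglia miRNAs were higher in the core, with medians of 1.44 and 1.01, and the neuron medians were -0.34 and -0.21. Defining markers miR-142-3p of leukocytes and miR-144-3p of red cells were detected on fewer than 3 arrays and not tested. The part of these cell types in the core and the core minus peri differences of miR-338-3p and miR-219a-5p was not tested.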

How the data were processed

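Per the labels and methods, total RNA was tailed, tagged and hybridised to single-colour (Cy5) µParaflo arrays, scanned and digitized. Spot files as deposited hold a median pixel intensity per spot, neither background subtracted nor normalized, and the authors also gave a table of normalized intensity values on a linear scale (background subtracted, locally weighted regression), used here as an alternative only. All 18 of its columns lay closest to their own array (lowest own r 0.873, highest other 0.714, over 212 bright probes); how it combined spots is not stated. Probe sequences are the target sequences in the array files; no coordinates are given, since no rat genome was used here.

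Spot intensities were background corrected with normexp (offset 50, all spots), log2 transformed and normalized by cyclic loess over 18 arrays, with control and empty spots (924 of 3968) given no weight in the curve, and the 4 spots of a probe were averaged. The detection limit of an array was the median of its 612 empty spots plus 3 scaled median absolute deviations. The tests took in the 532 of 761 probes with detection on 3 or more arrays. The number of arrays limits the precision, and cyclic loess assumes that differences balance over the miRNAs.

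Groups followed the labels. Limma 3.58.1 in R 4.3.3 (lmFit, eBayes with variance trend) was fitted on 1 value per rat: core minus peri, core, peri or their mean, with all 9 rats in 1 fit, and p-values were adjusted over all 532 miRNAs by Benjamini-Hochberg at 0.05. Same-rat pairing of core and peri comes from the labels; the correlation of their deviations from group means ran from -0.51 to 0.49. P-values measure the spread between these rats. Named besides the 5 miRNAs are the 3 miRNAs most like each by Pearson r, listed lineage miRNAs that passed and examples from the list. The members and lists were chosen with earlier results of these data known. Alternatives were background, normalization, filter, variance model, samples, pairing, test, base composition and each rat left out; 3 more were added after seeing the data. A paired fit with the replicate number as a block was one of them.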

Additional observations from a re-analysis of the deposited data

Results flagged for a closer look

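In all, 3 results were flagged because every rat of one condition lay on one side of 0 in core minus peri and every rat of another lay on the other side. The share of all 532 miRNAs that met this rule was not computed, so the count of 3 is not read as a result. The same sign in every rat, in either direction, was seen in 42.1% of all miRNAs in sham, 43.6% in tMCAO and 21.2% in PostC rats. MiR-338-3p was higher in the core in 3 of 3 sham rats and lower in 3 of 3 PostC rats, a difference of -3.81 as measured (SE 0.82), with the core array of PostC rat 1 under the detection limit. The limma test of that difference gave an adjusted p of 0.309, and over the alternatives the value ran from -5.69 to -2.89 with adjusted p-values of 0.0563 to 0.712. MiR-219a-5p was higher in the core in 3 of 3 sham rats and lower in 3 of 3 tMCAO rats, a difference of -2.11 with an adjusted p of 0.425 (0.156 to 0.98 over the alternatives), where the tMCAO values were all under the detection limit. MiR-219a-2-3p was higher in the core in 3 of 3 tMCAO rats and lower in 3 of 3 PostC rats, a difference of -0.89 with an adjusted p of 0.488 (0.233 to 0.995 over the alternatives). By limma 0 of the 3 passed the threshold under any alternative.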

How the results depend on the processing

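Of the 64 differences of the 4 miRNAs, 40 kept their sign under every alternative run for them and 24 changed sign under at least 1, the largest of those 24 being 0.40 in size. The number of the 4 miRNAs past the threshold was 0 in all 16 comparisons and stayed 0 under every alternative in 13. For tMCAO against sham in the rat means it was 2 with quantile normalization, with median scaling, with the deposited normalized intensities and with control spots kept in the loess curve, each time miR-219a-5p and miR-338-3p. For the core it was 1 with the deposited intensities and 1 with only the groups compared in the fit. For the peri region it was 1 with median scaling, miR-338-3p. With 1 rat left out it ran from 0 to 2 in the rat means and from 0 to 1 in the core; sham rat 3 gave the 2, tMCAO rat 3 and PostC rat 3 gave 1 each in the rat means, and PostC rat 3 gave the 1 in the core. For miR-338-3p, core minus peri after tMCAO was 0.34 with plain background subtraction and 0.27 with median scaling, and PostC against tMCAO in the core was -1.22 with plain subtraction and -0.62 with the deposited intensities. For miR-338-5p, core minus peri in PostC was 0.10 with plain subtraction, 0.14 with median scaling, 0.011 with the base composition trend removed, 0.011 with sham rat 2 left out as well and 0.012 with control spots kept. Median scaling also gave -0.081 for miR-338-5p in sham core minus peri, 0.22 for its PostC against sham difference of core minus peri, and 0.13 for that of miR-219a-2-3p. Between conditions it gave, for miR-338-5p, -1.10 in the peri region and -0.38 in the rat means (tMCAO against sham) and -0.20 in the peri region (PostC against sham), and for miR-219a-2-3p -0.43 in the rat means (tMCAO) and -0.40 in the peri region (PostC); other sign changes are counted above. MiR-219a-5p in the peri region was 0.10 for tMCAO against sham with the base composition trend removed and sham rat 2 left out. With 1 rat left out, 18 of the 64 differences changed sign, 11 of them differences of at most 0.22 in size. The other 7 had these ranges: miR-219a-5p from -0.54 to 0.079 for tMCAO against sham and -0.016 to 0.63 for PostC against sham in the peri region, and -0.78 to 0.058 for PostC against tMCAO in core minus peri; miR-338-3p from -0.55 to 0.17 for core minus peri after tMCAO and -0.53 to 0.91 for PostC against tMCAO in the core; miR-219a-2-3p from -0.18 to 0.030 for core minus peri in sham rats; and miR-338-5p from -0.28 to 0.17 for core minus peri in PostC rats. The cause was not tested. A filter of detection on all 18 arrays leaves out miR-219a-5p and miR-338-3p.

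Replicate numbers across conditions share only a number (correlations of deviations from -0.40 to 0.23), and the fit with a replicate block changed no call of the 4 miRNAs, with an adjusted p of 0.136 for miR-338-3p and 0.144 for miR-219a-5p in the tMCAO against sham core. Under that block the rat-mean calls of miR-9a-5p (adjusted p = 0.0578) and miR-219b (0.0835) were lost. MiR-9a-5p passed in 13 of 23 alternatives and miR-219b in 8 of 22. Over all miRNAs the calls were 18 in the core (0 to 40), 3 in the peri region (0 to 128) and 63 in the rat means (8 to 130) for tMCAO against sham, and median scaling shifted the median miRNA by -0.41 in the peri region. Signal near the detection limit keeps miR-219a-5p in tMCAO rats from being read as more than a bound.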
